A study of Arabidopsis thaliana with 30 samples.

Results

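The nicotianamine synthase genes NAS1 (AT5G04950), NAS2 (AT5G56080), NAS3 (AT1G09240) and NAS4 (AT1G56430) and the ferritin genes FER1 (AT5G01600), FER3 (AT3G56090) and FER4 (AT2G40300) of Arabidopsis thaliana were followed across 10 genotypes. These 7 genes were picked by locus code from a table of 32548 genes, with earlier results of the same table in view. Their levels and their differences from the wild type are therefore given as a description, with standard errors and no test. The 7 genes all passed the filter on low values that left 21868 genes for testing (at least 10 in at least 3 libraries).

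RNA of whole seedlings was sequenced in 30 libraries, 3 per genotype. The wild type was Col-0. There were 7 single mutants: gcn5 and ada2b, then ada2a with spc, and lastly eaf6, ing1 and sdrl. Double mutants, named ada2aspc and spcing1, numbered 2. Every seedling was 12 days old and grown on Murashige and Skoog medium plates at 22 °C with 16 h of light and 8 h of darkness. GCN5 is a histone acetyltransferase, ADA2B is its partner in the conserved SAGA complex, and ADA2A, SPC, ING1, SDRL and EAF6 are subunits of a plant-specific complex that also holds GCN5. The labels give no allele for any mutant, and do not say how many seedlings made a library or whether the libraries of a genotype were grown separately. The spread between libraries may therefore be technical.

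Nicotianamine is a small metal chelator made from S-adenosylmethionine by nicotianamine synthase. It binds iron, zinc and copper and carries them between tissues, through the phloem and into the vacuole, and it has to be present for iron to be shared out properly between old and young leaves, flowers and seeds. Ferritin is a hollow protein shell that stores iron. In Arabidopsis it sits mainly in plastids, where it keeps free iron from generating reactive oxygen; FER1, FER3 and FER4 serve the vegetative plant and FER2 the seed. Ferritin transcripts are known to accumulate when iron is in excess, whereas several iron uptake and redistribution genes respond to shortage.

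Levels are the deposited normalised signal, given as mean ± SD of 3 libraries, and log2 fold changes were taken of value + 1 and are given ± SE from a fit of all 30 libraries. Column totals ran from 30914000 to 41548748 and no columns were identical. Transcript of the mutated gene was at 2.50% of Col-0 for ADA2A in ada2a and 1.09% in ada2aspc, at 22.5% for ING1 in ing1 and 20.6% in spcing1, and at 14.3% for EAF6 (AT4G14385) in eaf6. GCN5 transcript was at 49.2% in gcn5 and ADA2B transcript at 72.3% in ada2b; SPC and SDRL transcripts were not analysed here. All 10 green shoot markers and all 12 root markers were detected in every genotype. Summed green shoot markers ran from 580822 to 609039 in gcn5 and from 401319 to 498669 in ada2b, against at least 930598 in every library of the other genotypes.

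The stretches of 300 bases before the annotated transcript start are shown for FER1 and FER3, ferritin genes that differed in their spread, and for NAS1, NAS2 and NAS4, which varied apart. They are from the RefSeq copy of TAIR10.1, written 5′ to 3′ on the strand of the gene. The windows are chr5:230052-230351 (minus strand) for FER1 and chr3:20816036-20816335 (minus strand) for FER3. Those of the synthase genes are chr5:1459040-1459339 (minus strand) for NAS1, chr5:22712442-22712741 (minus strand) for NAS2 and chr1:21136535-21136834 (plus strand) for NAS4. Capitals mark a G-box (CACGTG) or an evening element (AAATATCT).
FER1: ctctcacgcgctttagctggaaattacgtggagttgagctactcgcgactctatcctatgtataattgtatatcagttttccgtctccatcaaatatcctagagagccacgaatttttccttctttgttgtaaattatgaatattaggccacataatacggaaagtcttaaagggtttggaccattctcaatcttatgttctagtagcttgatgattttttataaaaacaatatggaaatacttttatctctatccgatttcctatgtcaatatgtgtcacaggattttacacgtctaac
FER3: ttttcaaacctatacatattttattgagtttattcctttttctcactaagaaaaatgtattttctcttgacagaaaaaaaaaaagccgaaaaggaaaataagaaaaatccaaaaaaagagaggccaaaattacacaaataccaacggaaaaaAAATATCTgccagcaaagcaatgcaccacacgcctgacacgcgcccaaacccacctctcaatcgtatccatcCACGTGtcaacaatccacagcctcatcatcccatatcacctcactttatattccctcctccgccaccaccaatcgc
NAS1: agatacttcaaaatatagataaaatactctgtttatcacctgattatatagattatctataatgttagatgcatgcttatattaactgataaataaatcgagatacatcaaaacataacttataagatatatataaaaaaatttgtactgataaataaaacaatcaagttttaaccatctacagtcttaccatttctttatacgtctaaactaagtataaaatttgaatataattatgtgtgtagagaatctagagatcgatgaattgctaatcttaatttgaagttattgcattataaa
NAS2: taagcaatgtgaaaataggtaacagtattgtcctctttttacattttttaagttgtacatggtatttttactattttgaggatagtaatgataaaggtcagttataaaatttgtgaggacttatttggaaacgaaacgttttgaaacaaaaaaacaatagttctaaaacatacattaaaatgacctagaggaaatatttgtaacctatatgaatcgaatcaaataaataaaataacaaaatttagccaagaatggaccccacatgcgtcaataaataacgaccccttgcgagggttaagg
NAS4: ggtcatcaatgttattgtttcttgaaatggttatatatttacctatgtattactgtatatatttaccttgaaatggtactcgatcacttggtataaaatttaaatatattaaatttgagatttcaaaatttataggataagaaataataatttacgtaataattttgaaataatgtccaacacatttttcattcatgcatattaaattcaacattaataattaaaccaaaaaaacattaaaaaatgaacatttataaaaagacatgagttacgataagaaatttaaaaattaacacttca
FER3 held a G-box 76 to 71 bases before the start and an evening element 148 to 141 bases before it, the latter on the strand of the gene. These letters, the CCA1-binding site AAAAATCT, the P1BS motif GNATATNC and the core of the iron-dependent regulatory sequence, CACGAGG, were searched on both strands. None of them was found in the windows of FER1 or of NAS1 to NAS4. Sequence further upstream or after the annotated start was not searched, so these genes may hold such letters there. Over 27443 promoter windows of the same length, 7.09% held the G-box, 5.64% the evening element, 7.94% the CCA1-binding site, 6.5% P1BS and 0.842% the core of the iron-dependent regulatory sequence. The wider E-box CANNTG, which contains the G-box, was in 61.9% of windows, among them those of NAS1 to NAS4 and FER3. These are matches of letters, not measured binding sites.

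The 4 synthase genes each have 1 annotated exon. NAS1 lies on chromosome 5 at 1457641 to 1459039, NAS2 on chromosome 5 at 22711141 to 22712441, NAS3 on chromosome 1 at 2984829 to 2986231 and NAS4 on chromosome 1 at 21136835 to 21138277. The ferritin genes have 8 exons each, FER1 on chromosome 5 at 227953 to 230051, FER3 on chromosome 3 at 20813904 to 20816035 and FER4 on chromosome 2 at 16831109 to 16833294. NAS1 and NAS2 shared 82.8% of aligned coding bases and NAS3 and NAS4 79.1%, while the other pairs of synthase genes shared between 66.7% and 68.9%. FER3 and FER4 shared 76.4%, against 67% for FER1 with FER3 and 68.0% for FER1 with FER4. The longest identical stretch between any pair within a family was 49 bases, in NAS1 and NAS2, shorter than the 150-base reads. How the authors' counting treated reads that match more than 1 gene was not given in the sources used here.

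For levels per kb, the deposited values were taken as not yet scaled by gene length, which the sources used here do not state. Set per kilobase of exon so that genes could be compared, NAS1 supplied most synthase transcript in Col-0. Its level per kb was 2079 ± 106, against 286 ± 17.6 for NAS4, 244 ± 88.3 for NAS3 and 127 ± 72.4 for NAS2. NAS1 thus made up 76.1% ± 3.23 of the family's summed level per kb in Col-0. Among the ferritins, FER1 stood at 3029 ± 1406 per kb, FER3 at 1218 ± 175 and FER4 at 557 ± 121 in Col-0. FER1 varied widely between the wild-type libraries, so its share of the family there, 61.4% ± 7.39, ran from 53.7% to 68.4%.

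NAS1 was lower than in Col-0 in 8 of the 9 mutants, and lowest in gcn5 and ada2b. Col-0 libraries stood at 3012, 2738 and 2974. In gcn5 the libraries stood at 1003, 1212 and 1038, a mean of 37.3% of Col-0 and a log2 fold change of -1.43 ± 0.11. In ada2b they stood at 1286, 1475 and 1110, or 44.4% of Col-0 (-1.18 ± 0.11). Every gcn5 and ada2b library lay below every library of the other 8 genotypes, the nearest being spcing1 replicate 2 at 1588. The 6 mutants ada2a, spc, ing1, sdrl, ada2aspc and spcing1 formed a middle band with means from 1815 in spcing1 to 2192 in spc, or 62.4% to 75.4% of Col-0, and each of their libraries lay below each Col-0 library. Only eaf6 overlapped Col-0, with libraries at 2674, 3244 and 3258 (0.07 ± 0.11). In the order of means, spcing1 lay wholly above ada2b, and Col-0 wholly above the middle band, while all other neighbours overlapped. Because whole seedlings were measured, fewer cells of a type that expresses a gene and less RNA of it per cell cannot be told apart. Summed root markers ran from 5788 to 6280 in gcn5 and from 6023 to 7468 in ada2b, against 5208 to 7215 in Col-0, and of the 12 markers 5 rose and 1 fell in gcn5 and 6 rose and 2 fell in ada2b. All 10 green shoot markers fell in both. The part of these markers in the levels of the 7 genes was not tested.

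NAS2, which is known mainly from roots, was the gene with the widest range. It was at 97.0, 126 and 273 in Col-0, at 11.1, 5.19 and 26.5 in gcn5, and listed at 0 in all 3 ada2b libraries. The gcn5 mean was 8.64% of Col-0 (-3.56 ± 0.37), and no fold is given for ada2b. The other 7 mutants had means from 169 in ada2aspc to 316 in eaf6. The eaf6 libraries, at 295, 285 and 367, were each above the highest Col-0 library (1.06 ± 0.37). The ada2a libraries stood at 262, 263 and 306 and the spc libraries at 182, 333 and 296, both overlapping Col-0 through its highest library. Without Col-0 replicate 3, the log2 difference of ada2a was 1.31 in place of 0.88 and that of spc 1.24 in place of 0.80. In the order of means, gcn5 lay wholly above ada2b and Col-0 wholly above gcn5, and other neighbours overlapped. NAS1 and NAS2, the pair most alike in sequence, were both lowest in gcn5 and ada2b, but the 6 mutants of the middle NAS1 band had NAS2 means at or above that of Col-0.

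NAS4 was ordered differently, with its lowest means in sdrl and spcing1. It was at 389, 410 and 439 in Col-0, at 384, 370 and 415 in gcn5 and at 430, 346 and 401 in ada2b. These 3 genotypes overlapped, with log2 differences of -0.08 ± 0.14 in gcn5 and -0.08 ± 0.14 in ada2b, which became 0.12 and 0.19 when the values were divided by column totals. By contrast, sdrl libraries stood at 201, 180 and 150, or 42.9% of Col-0 (-1.22 ± 0.14), and spcing1 libraries at 187, 178 and 193, or 45.1% (-1.15 ± 0.14). The ing1 mean was 58.1% of Col-0, spc 60.7%, ada2aspc 65.8% and ada2a 73.2%. Each library of these 6 mutants lay below each Col-0 library. In eaf6 NAS4 overlapped Col-0 at 448, 344 and 416 (-0.04 ± 0.14). From low to high, sdrl and spcing1 overlapped each other and lay wholly below ing1, and ada2a lay wholly below gcn5; other neighbours overlapped.

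**Figure D1:**
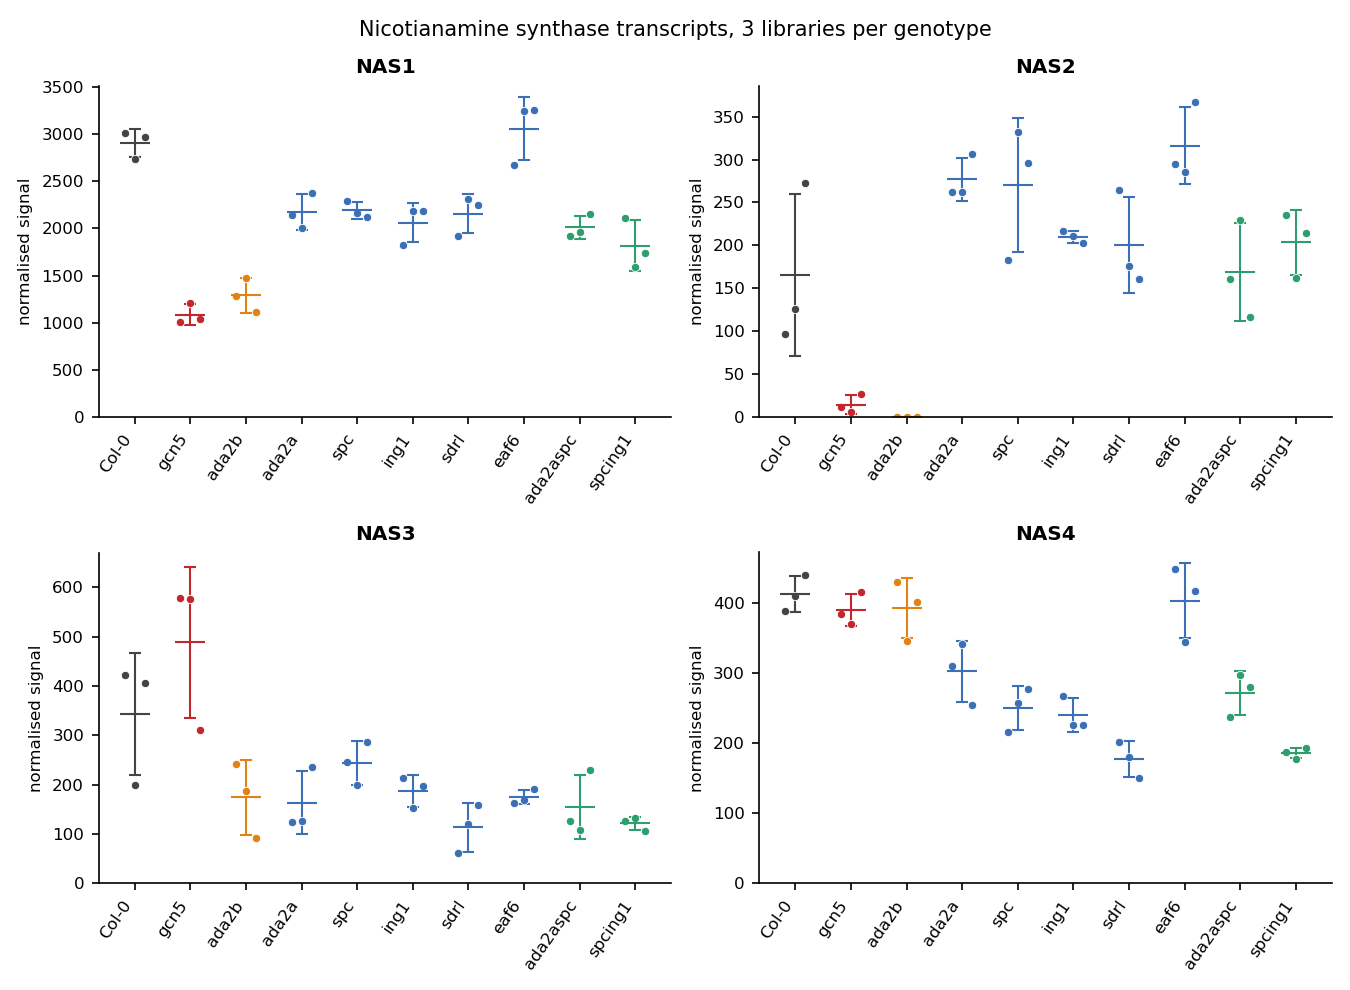
Normalised signal of the 4 nicotianamine synthase genes in each of the 30 libraries (points), with the mean and SD of each genotype (bars), on linear axes starting at 0. NAS1 and NAS2 sit lowest in gcn5 and ada2b, where NAS4 overlaps Col-0, while NAS4 sits lowest in sdrl and spcing1.

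NAS3, known as a synthase of leaves and reproductive organs, was the only synthase gene with its highest mean in gcn5, but its libraries disagreed within genotypes. It was at 423, 200 and 405 in Col-0 and at 578, 576 and 312 in gcn5 (0.53 ± 0.35), so these overlapped. In sdrl it was at 61.5, 121 and 160 (-1.61 ± 0.35), in spcing1 at 127, 132 and 106 (-1.42 ± 0.35) and in eaf6 at 164, 170 and 190 (-0.90 ± 0.35), in each case wholly below Col-0. The ada2b, ada2a, spc, ing1 and ada2aspc means lay between 154 and 244 and overlapped the lowest Col-0 library. The SD between libraries of a genotype was 0.49 on the log2 scale for NAS3 and 0.50 for NAS2, against 0.15 for NAS1, 0.16 for NAS4 and a median of 0.16 over the 21868 tested genes. Neighbours in the order of NAS3 means all overlapped.

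Summed per kb, synthase transcript was 2736 ± 230 in Col-0, 1404 ± 133 in gcn5 and 1318 ± 158 in ada2b. The similar sums of gcn5 and ada2b were made up differently. In gcn5, NAS1 gave 55.3% ± 3.74 and NAS3 24.5% ± 6.23 of the sum, and in ada2b NAS1 gave 69.9% ± 3.86 and NAS3 9.21% ± 3.32. The eaf6 sum of 2833 ± 241 was the nearest to the wild type. In the other 6 mutants the sum lay between 1669 in spcing1 and 2122 in spc.

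FER3 was lowest in the wild type. Col-0 libraries stood at 1420, 1431 and 1813 and gcn5 libraries, the highest, at 2463, 2363 and 2596, or 159% of Col-0 (0.68 ± 0.11). In ada2b, ada2a, spc, ing1, eaf6 and spcing1 the means were 139% to 157% of Col-0. Every library of these 7 mutants lay above every Col-0 library. The sdrl libraries, at 1649, 2145 and 2071, and the ada2aspc libraries, at 1780, 1858 and 1611, overlapped Col-0, with log2 differences of 0.33 ± 0.11 and 0.18 ± 0.11. Neighbours in the order of means overlapped throughout.

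FER1, the most abundant ferritin transcript per kb in Col-0 and the one most studied for its response to iron, did not stand apart from Col-0 in any mutant. It was at 2612, 3792 and 6508 in Col-0. Means of the single mutants ran from 3491 in eaf6 to 6318 in ada2b. In ada2aspc it was at 2008, 2719 and 1807, or 50.6% of Col-0 (-0.90 ± 0.29), with 1 library inside the Col-0 range. Replicate 3 of Col-0 set much of the wild-type mean. Without it the difference of ada2aspc was -0.55, while gcn5 stood at 0.79 in place of 0.44, ada2b at 0.98 in place of 0.63 and spc at 0.89 in place of 0.54.

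FER4 followed FER3 in part. It was at 593, 628 and 870 in Col-0, at 912, 1182 and 1055 in spc (0.60 ± 0.16) and at 958, 953 and 928 in ada2a (0.46 ± 0.16), and these mutants lay wholly above Col-0. The eaf6 mean was 147% of Col-0 (0.55 ± 0.16), with 1 library inside the Col-0 range. The gcn5, ada2b, ing1 and spcing1 means were 113% to 130% of Col-0 and overlapped it. In sdrl FER4 was at 562, 714 and 752 and in ada2aspc, the lowest, at 571, 636 and 514, or 82.3% of Col-0. Neighbours in the order overlapped for FER1 and FER4 too.

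**Figure D2:**
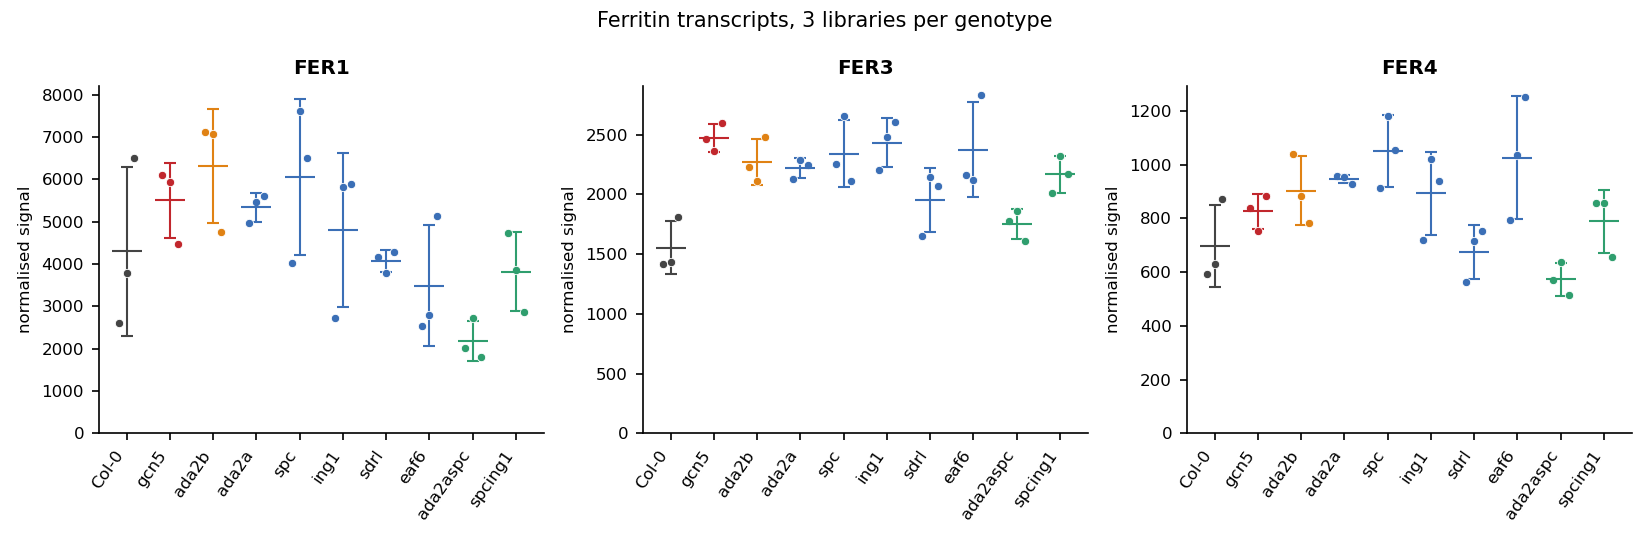
Normalised signal of the 3 vegetative ferritin genes in each of the 30 libraries (points), with the mean and SD of each genotype (bars), on linear axes starting at 0. FER1 spreads from 2612 to 6508 within Col-0, FER3 is lowest in Col-0 at 1555 ± 224, and FER1 and FER4 are lowest in ada2aspc.

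FER2, the seed ferritin, is not among the 7 genes and was tested. It stood at 48.4 ± 14.9 in Col-0 and fell in spc to 17.5 ± 6.39 (limma, -1.43 ± 0.35, adjusted p = 0.00145). In ada2b it was at 80.8 ± 3.98 (0.77 ± 0.35, adjusted p = 0.0651). Per kb its Col-0 level of 42.2 ± 12.9 was a small fraction of that of FER4.

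Read over the 7 genes together, the mutants differed in which genes lay wholly above or below Col-0. In gcn5, 1 of the 7 genes (FER3) lay wholly above and 2 (NAS1 and NAS2) wholly below, where 23.2% and 28.7% of the 21868 tested genes did. The ada2b counts were the same, 1 and 2, for the same genes, beside 28.6% and 29.9% of tested genes. In ada2a, 2 lay above (FER3 and FER4) and 2 below (NAS1 and NAS4), beside 20.6% and 22.5%. The spc counts were 2 and 2, again FER3, FER4, NAS1 and NAS4, beside 24.8% and 25.0%. In ing1 the counts were 1 (FER3) and 2 (NAS1 and NAS4), beside 23.2% and 25.5%. In sdrl they were 0 and 3 (NAS1, NAS3 and NAS4), beside 21.1% and 25.8%. In eaf6 they were 2 (NAS2 and FER3) and 1 (NAS3), beside 29.7% and 30.1%. In ada2aspc they were 0 and 2 (NAS1 and NAS4), beside 25.8% and 27.9%, and in spcing1 1 (FER3) and 3 (NAS1, NAS3 and NAS4), beside 24.7% and 28.7%. As the genes were chosen with these contrasts known, nothing is read from the counts, and all 9 comparisons share the Col-0 libraries.

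**Figure D3:**
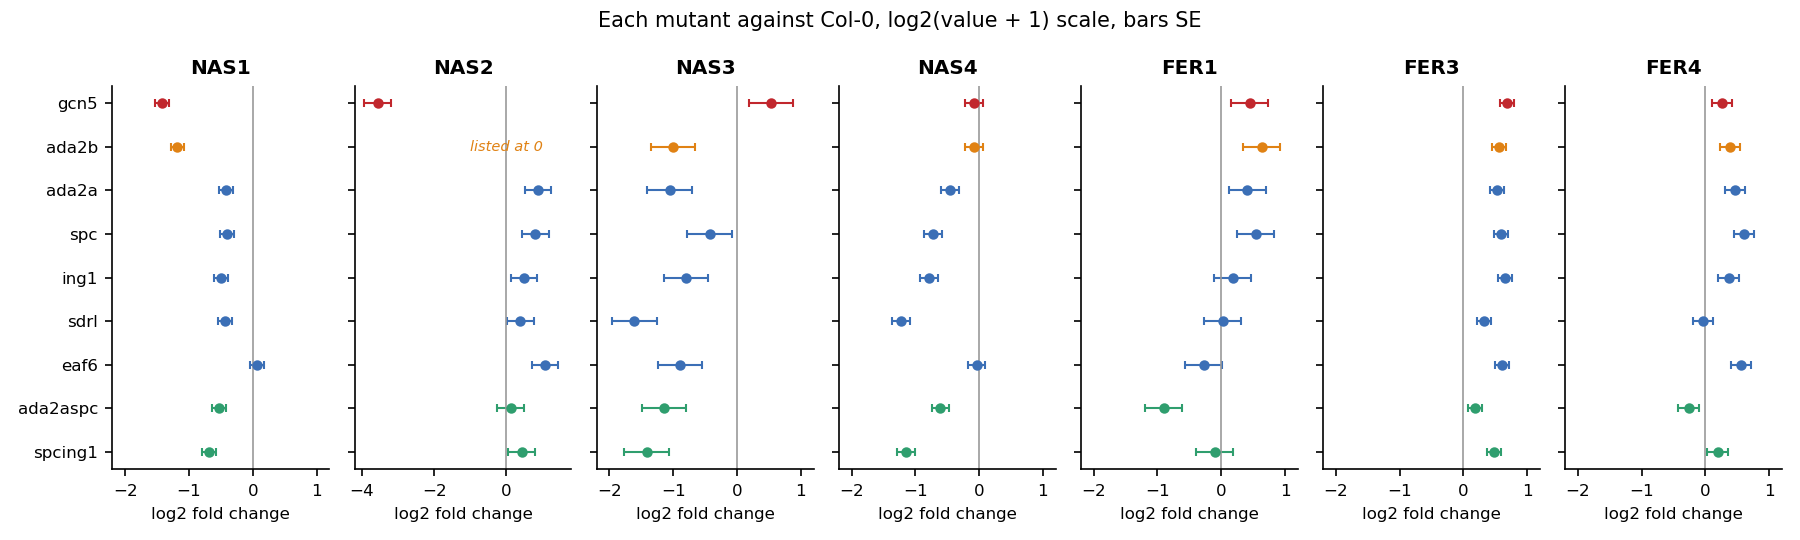
Log2 fold change of each of the 7 genes in each mutant against Col-0 (points) with its SE (bars), on the log2(value + 1) scale; the NAS2 panel has a wider axis. NAS1 is lowest in gcn5 at -1.43, NAS4 in sdrl at -1.22, FER3 lies right of 0 in all 9 mutants, and NAS2 is listed at 0 in ada2b.

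Mutants were also compared directly. In ada2b against gcn5, NAS2 and NAS3 lay wholly lower (2 of 7 genes, beside 24.8% of tested genes) and 0 genes wholly higher (24.2%). NAS3 stood at 174 ± 75.9 in ada2b and 489 ± 153 in gcn5 (-1.53 ± 0.35). In ada2a against ada2b, mutants of related adaptor proteins, NAS1 and NAS2 lay wholly higher (2 genes, beside 34.1%) and NAS4 wholly lower (1 gene, beside 32.4%). NAS1 was higher in ada2a by 0.76 ± 0.11 and NAS4 lower, at -0.38 ± 0.14. FER1, FER3 and FER4 differed between ada2a and ada2b by -0.22 ± 0.29, -0.03 ± 0.11 and 0.08 ± 0.16. When the values were divided by column totals, these 3 differences became -0.56, -0.37 and -0.27. That of NAS1 became 0.42 and that of NAS4 -0.72.

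The ada2aspc double mutant differed from each of its single mutants in the ferritins. FER1 stood at 2178 ± 479 in ada2aspc, against 5341 ± 336 in ada2a and 6054 ± 1844 in spc, a log2 difference of -1.31 ± 0.29 and -1.45 ± 0.29. FER4 stood at 574 ± 61.2, against 946 ± 16.2 and 1050 ± 135 (-0.73 ± 0.16 and -0.87 ± 0.16). FER3 stood at 1750 ± 126, against 2222 ± 84.9 and 2342 ± 279 (-0.35 ± 0.11 and -0.42 ± 0.11). For each ferritin, every double-mutant library lay below every library of both single mutants. With NAS2 against ada2a, that made 4 of 7 genes wholly lower than ada2a, beside 16.1% of tested genes, and 3 of 7 wholly lower than spc, beside 14.9%; 0 genes lay wholly higher in either, beside 15.2% and 12.7%. Per kb, summed ferritin transcript was 3361 ± 474 in ada2aspc, 6255 ± 288 in ada2a, 6933 ± 1535 in spc and 4803 ± 1695 in Col-0. FER1 made up 45.3% ± 3.52 of the ada2aspc sum, against 60.1% ± 1.11 in ada2a and 60.6% ± 6.49 in spc. Summed green shoot markers ran from 1065950 to 1113650 in ada2aspc, 1230140 to 1307800 in ada2a and 1076010 to 1188610 in spc; their part in the ferritin levels was not tested.

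In spcing1, NAS3 and NAS4 were lower than in both of its single mutants, by differences that were described and not tested. NAS1, NAS3, NAS4 and FER4 lay wholly below spc (4 of 7 genes, beside 12.7% of tested genes), and NAS3 and NAS4 wholly below ing1 (2 of 7, beside 9.97%). No gene of the 7 lay wholly above spc or ing1, beside 9.96% and 10.1%. NAS4 stood at 186 ± 7.59 in spcing1, against 250 ± 30.9 in spc and 240 ± 24.0 in ing1 (-0.42 ± 0.14 and -0.36 ± 0.14). FER3 overlapped in all 3 genotypes.

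Other genes of iron handling were then tested in 5 lists, which together held 68 genes, 66 of them tested. The fifth list held 13 genes of S-adenosylmethionine supply and recycling, which are counted below among the other iron genes. These lists, too, were chosen with earlier results of the same data known, so their counts are a description. A gene was called at an adjusted p below 0.05 in limma. In gcn5, 15 of the 66 genes rose and 30 fell, their median difference being -0.16 on the log2 scale, where 42.7% of all tested genes were called and their median was -0.02. In ada2b, 14 rose and 26 fell (median 0.01), beside 51.6% called and a median of 0.01 over all tested genes. Among the other single mutants, 10 rose and 18 fell in ada2a (29.7% of all tested genes called), 14 and 27 in spc (39.9%), 11 and 24 in ing1 (35.7%), 9 and 23 in sdrl (35.8%) and 17 and 23 in eaf6 (51.0%). In ada2aspc 11 rose and 24 fell (44.4%), and in spcing1 10 rose and 27 fell (44.9%). The ada2a count of 28 was 17 without ada2a replicate 3. The balance of directions depended on scaling. Divided by column totals, 24 rose and 24 fell in gcn5, 33 rose and 19 fell in ada2b and 7 rose and 25 fell in ada2a, and the median of all tested genes moved to 0.17, 0.27 and -0.12. In the direct comparisons, 13 were higher and 17 lower in ada2b than in gcn5 (42.1% of all tested genes called), and 25 were higher and 23 lower in ada2a than in ada2b (63.7%). With column totals the former became 17 higher and 15 lower and the latter 19 higher and 37 lower.

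The 18 iron regulators fell more often than they rose in every mutant. In gcn5 and in ada2b, 0 rose and 10 fell, with median log2 fold changes of -0.73 and -0.53. Of all tested genes 42.7% and 51.6% were called, with 3973 higher and 5360 lower in gcn5 and 5142 higher and 6146 lower in ada2b. Divided by column totals, 5 of the regulators rose in each and 9 and 8 fell. In the other 7 mutants 1 to 3 rose and 7 to 10 fell without that division, where 29.7% to 51.0% of all tested genes were called. Over all tested genes more fell than rose in every mutant except ada2a (3312 higher, 3180 lower) and spc (4431 higher, 4298 lower). bHLH38, BHLH100 and bHLH34 fell in 9 of 9 mutants, and the calls held under every alternative run in 8, 6 and 8 of them. bHLH38 and BHLH100 encode transcription factors that switch on root iron uptake, and bHLH34 acts upstream of them. Not all regulators of the list shared this direction. BHLH101 fell in 2 mutants and FRU in 1, with 0 rises for either. ILR3 rose in 5 and fell in 0, bHLH104 rose in 1 and fell in 0, and bHLH115 rose in 1 and fell in 1. bHLH38 stood at 1126 ± 123 in Col-0, 272 ± 57.8 in gcn5 (-2.06 ± 0.26, adjusted p = 2.09e-07 in limma) and 44.8 ± 10.4 in ada2b (-4.64 ± 0.26, adjusted p = 3.57e-15). AT2G30766, which has no symbol in the reference used, fell in 9 of 9 mutants under every alternative, with log2 fold changes from -2.31 to -1.64. bHLH121, another activator of the iron deficiency response, rose in 7 mutants, from 1447 ± 66.4 in Col-0 to 2949 ± 235 in spcing1 (1.03 ± 0.08, adjusted p = 1.27e-11 in limma). It was not called in gcn5 (0.13 ± 0.08) or ada2b (0.11 ± 0.08).

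Of 12 tested genes of root iron uptake, 4 rose and 6 fell in gcn5 and 4 rose and 5 fell in ada2b. Of all tested genes 42.7% and 51.6% were called there. The uptake genes that rose in both were IRT2, a relative of the transporter gene IRT1, HA2, a proton pump that acidifies the soil around the root, and ABCG37, an exporter of coumarins. IRT2 stood at 172 ± 33.3 in Col-0, 369 ± 34.9 in gcn5 (1.11 ± 0.26, adjusted p = 0.000851 in limma) and 296 ± 73.8 in ada2b (0.76 ± 0.26, adjusted p = 0.0146), the ada2b call being lost without Col-0 replicate 3 or ada2b replicate 1 or 2. Log2 fold changes in gcn5 and ada2b were 0.50 ± 0.09 and 0.68 ± 0.09 for HA2 and 0.55 ± 0.10 and 0.80 ± 0.10 for ABCG37. The fourth gene that rose was AT3G13610 in gcn5 (0.51 ± 0.16, adjusted p = 0.0119 in limma), a call lost without gcn5 replicate 1 or 2, and NRAMP1, a manganese and iron transporter, in ada2b (0.70 ± 0.08, adjusted p = 1.12e-08). The genes that fell included those with the widest differences. IRT1, the main ferrous iron transporter of the root surface, fell from 1900 ± 426 in Col-0 to 333 ± 44.7 in gcn5 (-2.49 ± 0.17, adjusted p = 1.37e-12 in limma) and 186 ± 59.4 in ada2b (-3.37 ± 0.17, adjusted p = 3.4e-16). FRO2, the ferric reductase that feeds it, fell in gcn5 (-2.07 ± 0.20, adjusted p = 1.44e-09 in limma) and in ada2b (-3.25 ± 0.20, adjusted p = 2.8e-14). MYB10, a transcription factor of the root iron deficiency response, was at 65.9 ± 17.2 in Col-0, 18.2 ± 4.57 in gcn5 (-1.80 ± 0.37, adjusted p = 0.000219 in limma) and 1.38 ± 1.22 in ada2b (-4.96 ± 0.37, adjusted p = 1.96e-12). IRT1, FRO2 and MYB10 had their lowest means of the series in ada2b, as NAS2 did. In the direct test of ada2b against gcn5, MYB10 was lower in ada2b (-3.16 ± 0.37) and CYP82C4, which makes a secreted coumarin that mobilises iron, was lower too, at 5.32 ± 6.80 against 57.8 ± 30.8 (adjusted p = 7.08e-08 and 4.99e-07 in limma). In the 6 mutants ada2a, spc, ing1, sdrl, ada2aspc and spcing1, 0 uptake genes rose and 1 to 4 fell, and in eaf6 4 rose and 2 fell. In these mutants 29.7% to 51.0% of all tested genes were called.

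Among 13 genes of nicotianamine and iron transport, 3 to 6 rose and 1 to 5 fell in each mutant, where 29.7% to 51.6% of all tested genes were called. YSL3, which carries metal-nicotianamine complexes, rose in 8 mutants, from 1447 ± 81.2 in Col-0 to 4271 ± 631 in ada2aspc (1.55 ± 0.13, adjusted p = 2.4e-11 in limma). In ada2b it was at 1598 ± 427 (0.11 ± 0.13). ZIF1, which moves nicotianamine into the vacuole, and OPT3, which loads iron into the phloem, each fell in 7 mutants, calls that held under every alternative in 4 and 2 of them. IREG2, a transporter of the root vacuole membrane known for storing nickel and cobalt under iron deficiency, fell from 149 ± 9.18 in Col-0 to 37.4 ± 6.30 in gcn5 (-1.97 ± 0.18, adjusted p = 3.71e-10 in limma) and to 6.68 ± 2.06 in ada2b (-4.32 ± 0.18, adjusted p = 2.65e-18), and rose in the other 7 mutants, to 338 ± 13.0 in eaf6 (1.18 ± 0.18, adjusted p = 2.61e-06). The ing1 call was lost without Col-0 replicate 1 or 3 or ing1 replicate 1, and the sdrl call without sdrl replicate 2.

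**Figure D4:**
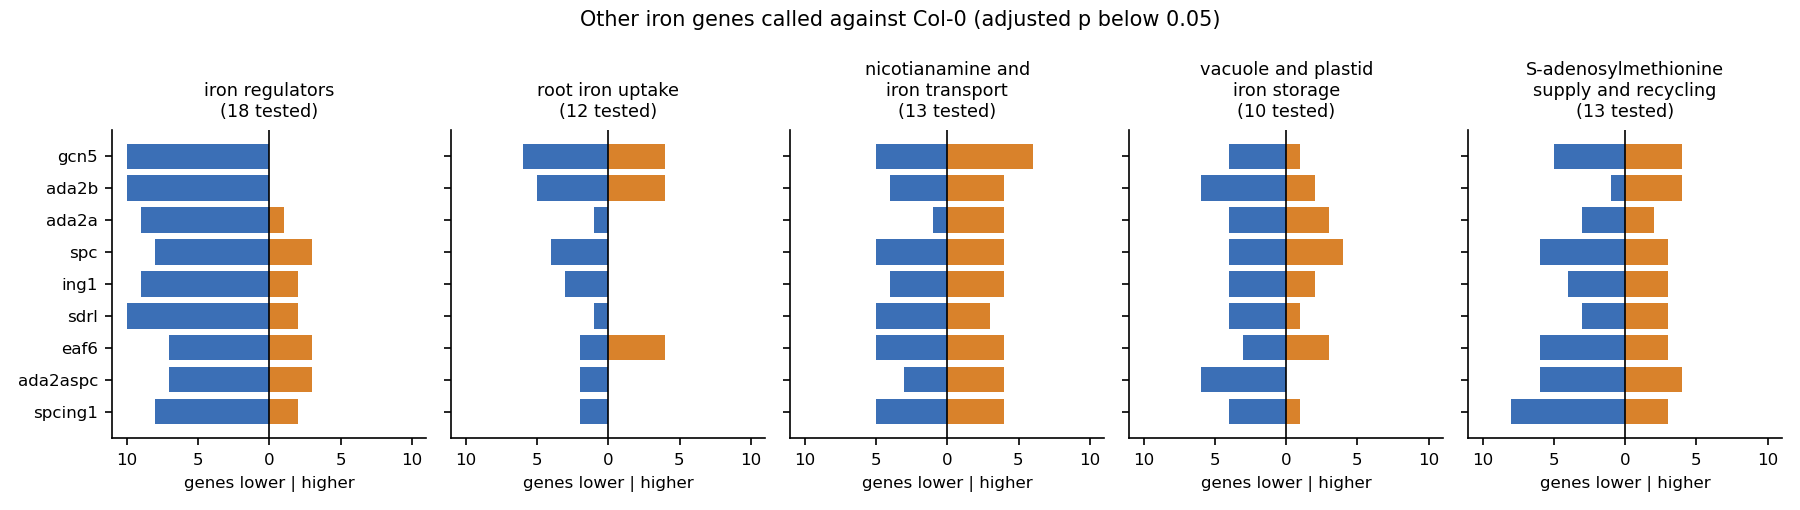
Number of genes called lower (left, blue) and higher (right, orange) than Col-0 in each mutant for the 5 lists of other iron genes, at an adjusted p below 0.05 in limma. The 18 regulators fall more often than they rise in every mutant. Root uptake genes are called most often in gcn5 and ada2b, with 10 and 9 of 12, beside 42.7% and 51.6% of all tested genes.

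The 10 genes tested under vacuolar and plastid iron handling bear on the ferritins, which store plastid iron. They include APX1, whose protein is cytosolic. FRO7, the ferric reductase of chloroplasts, fell in 9 of 9 mutants under every alternative, from 2883 ± 145 in Col-0 to 928 ± 55.8 in eaf6 (-1.63 ± 0.15, adjusted p = 4.88e-10 in limma) and 2060 ± 58.3 in spc (-0.48 ± 0.15, adjusted p = 0.0124). In ada2aspc 0 of the listed genes rose and 6 fell, where 44.4% of all tested genes were called. The median of the list was -0.44 on the log2 scale, beside -0.02 over all tested genes. NEET, an iron-sulfur protein, stood at 99.4 ± 64.1 in ada2aspc, against 519 ± 30.9 in ada2a (-2.56 ± 0.37, adjusted p = 1.18e-05 in limma) and 611 ± 221 in spc (-2.74 ± 0.37, adjusted p = 4.34e-06). ABCI8, a subunit of the plastid iron-sulfur cluster assembly machinery, stood at 3006 ± 350, against 5168 ± 203 (-0.79 ± 0.11, adjusted p = 3.79e-06 in limma) and 5662 ± 329 (-0.92 ± 0.11, adjusted p = 3.46e-07). APX1, a haem peroxidase, was lower in ada2aspc than in ada2a (-0.32 ± 0.09, adjusted p = 0.0196 in limma) and in spc (-0.38 ± 0.09, adjusted p = 0.00608). Both calls were lost without ada2aspc replicate 3, and the first also without ada2a replicate 2. FRO7 fell too. These 4, the cytosolic APX1 among them, were the genes of the list that fell in the double mutant against each single mutant. That made 4 of 10 in both, where 14.7% and 11.9% of all tested genes were called. Over the 66 genes, 4 rose and 6 fell against ada2a and 13 rose and 7 fell against spc, the latter 20 dropping to 12 without spc replicate 2 and to between 12 and 13 without a library of ada2aspc. The spcing1 mutant differed less from its single mutants, with 3 higher and 3 lower than spc (7.06% of all tested genes called) and 1 higher than ing1 (2.82%). Against ing1 that gene was bHLH121 (0.35 ± 0.08, adjusted p = 0.0138 in limma), a call lost without replicate 2 or 3 of either genotype.

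Nicotianamine synthase uses S-adenosylmethionine, and 13 genes that supply it or recycle its by-product were tested. In the 9 mutants 2 to 4 of them rose and 1 to 8 fell, beside 29.7% to 51.6% of all tested genes called. The S-adenosylmethionine synthetase genes SAM1, SAM-2 and MTO3 rose in 9, 8 and 8 mutants, and in 5, 5 and 7 under every alternative. Another synthetase gene of the list, MAT3, rose in 1 mutant and fell in 3, with log2 fold changes from -0.35 to 0.52. MTO3 stood at 8801 ± 392 in Col-0 and 18640 ± 1081 in eaf6 (1.08 ± 0.09, adjusted p = 1.47e-11 in limma), and was not called in ada2b (0.12 ± 0.09). ARD4, an acireductone dioxygenase of the methionine recycling pathway, fell in 9 mutants, and in 7 under every alternative, from 2811 ± 134 in Col-0 to 1345 ± 66.4 in eaf6 (-1.06 ± 0.08, adjusted p = 7.39e-12 in limma).

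Genes whose levels followed each of the 7 most closely were ranked by Pearson's r on the log2 scale over the 30 libraries, among genes with a symbol. The points share libraries and genotypes, so r is a description. NAS1 was followed by PMEAMT, a methyltransferase that uses S-adenosylmethionine to make phosphocholine (r = 0.90), and by the root ammonium transporter gene AMT1;2 (0.89). PMEAMT stood at 8078 ± 271 in Col-0, 3998 ± 453 in gcn5 and 3553 ± 116 in ada2b. NAS2 was followed by CYP71B20, AGL87 and FMO GS-OX2, each with r = 0.98. Since NAS2 was at 0 in ada2b and at most 26.5 in gcn5, these low genotypes weigh heavily in r. CYP71B20 stood at 4040 ± 145 in Col-0, 1500 ± 135 in gcn5 and 768 ± 79.6 in ada2b. NAS4 was followed by UGT74B1 of glucosinolate synthesis (0.87) and MTO1, which commits the pathway to methionine (0.84). NAS3 was followed by PS2 (0.86), a gene of the phosphate starvation response. FER1 was followed by ABCI8 (0.80), FER4 (0.71) and APX1 (0.71), FER3 by FER4 (0.75) and APX1 (0.73), and FER4 by BBX32 (0.76) and FER3 (0.75).

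With the mean of each genotype subtracted, r describes how the libraries of a genotype differ from each other. This ranking was added after the data were seen. FER1 was then followed by FSD1 (r = 0.84), which encodes an iron superoxide dismutase, FER4 (0.81) and APX1 (0.80), and FER4 by FER1 (0.81) and NEET (0.80). FER1 and FER3 gave 0.50 and FER3 and FER4 0.67. In Col-0, FSD1 stood at 16733, 18024 and 21916 in replicates 1 to 3, where FER1 stood at 2612, 3792 and 6508, so the same library was highest in both. Over the 10 genotypes the library highest in FER1 was also the highest in FSD1 in 7 and was another one in gcn5, ada2a and ing1. FSD1 was picked for its r over these same deviations, so the count adds no support.

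NAS3 was followed within genotypes by 3 genes of the phosphate starvation response, SPX3 (r = 0.86), PS2 (0.80) and PEPC1 (0.79). Col-0 replicate 2, with NAS3 at 200 against 423 and 405 in the other 2, had SPX3 at 154 against 500 and 442. In gcn5, replicate 3 had NAS3 at 312 against 578 and 576, and SPX3 at 380 against 1345 and 1208. In sdrl, replicate 1 had NAS3 at 61.5 against 121 and 160, and SPX3 at 56.7 against 288 and 314. Over the 10 genotypes the library lowest in NAS3 was also the lowest in SPX3 in 7 and was another one in spc, ing1 and ada2aspc. SPX3 was picked in the same way as FSD1, so its count adds no support either. In ada2aspc the library lowest in NAS3, replicate 2, lay above its genotype's mean in SPX3. NAS1 and NAS2 followed each other over the 30 libraries (0.73) but not within genotypes (-0.19).

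**Figure D5:**
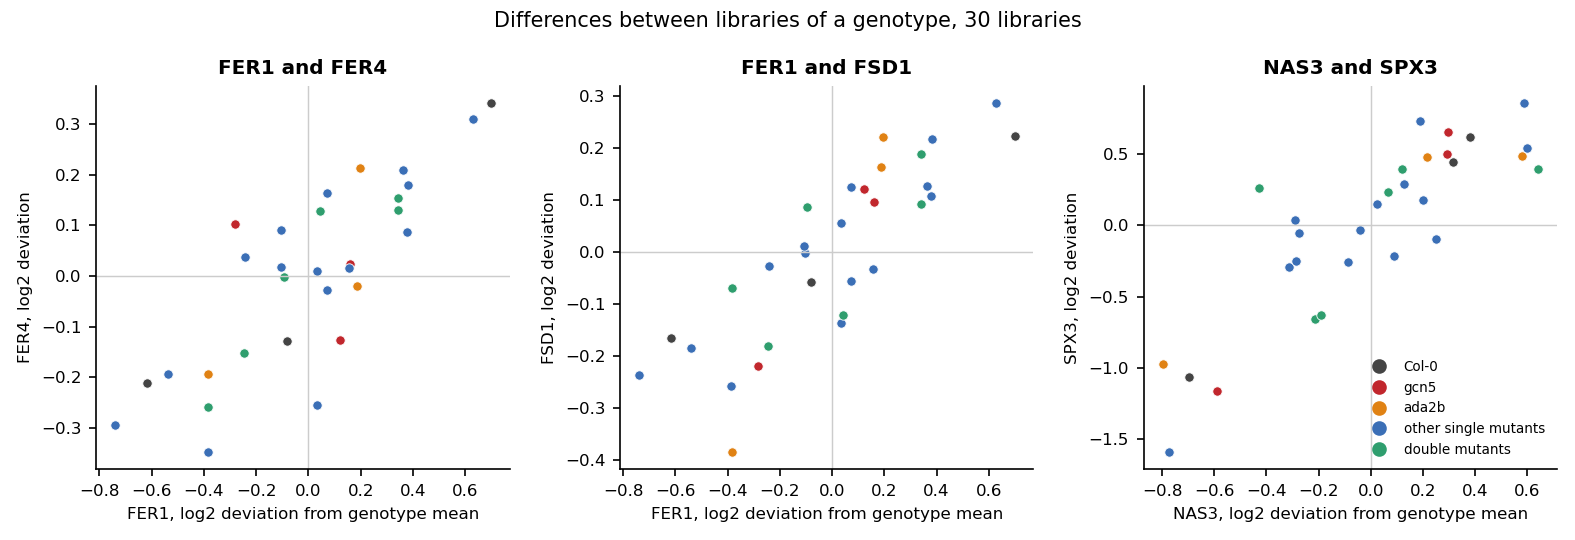
Log2 deviation of each of the 30 libraries from the mean of its genotype for FER1 with FER4, FER1 with FSD1 and NAS3 with SPX3, coloured by genotype. The points rise together in each panel (r = 0.81, 0.84 and 0.86), and libraries of Col-0, gcn5, ada2b and sdrl lie at the low end of the NAS3 panel.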

How the data were processed

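Total RNA of 12-day-old seedlings was extracted with TRIzol and sequenced as 150-base read pairs, per the labels' protocols. The authors deposited 1 table of normalised signal for 32548 genes, which is not whole-number counts. The submitters' processing notes name the TAIR10 build and the tools HISAT2, edgeR and bcl2fastq, with no role. Neither a tool version nor the read counter, annotation and normalisation step is given in the sources used here. Values below 1e-06 were set to 0. The depth in reads is unknown, so no counting interval is given.

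Samples were grouped by the genotype in their labels. limma 3.58.1 in R 4.3.3 was fitted to log2(value + 1) of all 30 libraries, with a term per genotype, trended empirical Bayes variances (20 residual degrees of freedom) and Benjamini-Hochberg adjustment over the 21868 genes with at least 10 in at least 3 libraries. The scale understates the change of low genes. The fit was tested on simulated data for gcn5 against Col-0, with 200 of 21868 genes changed. It called 48% of log2 changes of 0.5, 70% of changes of 1, 86% of changes of 2 and 0.0692% of unchanged genes. In the data themselves 9333 genes were called, so these shares may not carry over. The 7 genes and all gene lists were chosen with earlier results of these data known. Named list genes had, per comparison and list, up to 3 of the smallest adjusted p or the largest fold not called, or were called 1 way in at least 6 mutants. FSD1, SPX3, PEPC1, HA2, FRU, ILR3, bHLH104 and bHLH115 were chosen after their values were seen. All 32548 locus codes were found in the TAIR10.1 RefSeq annotation, the source of symbols, exon lengths, coordinates and sequences, read with Biopython 1.88. The promoter window of FER4 is not reported here. Plots used matplotlib 3.10.9 in Python 3.11.15. Alternatives were a pseudocount of 16, no filter, division by column totals, median-ratio size factors, only the groups compared, a replicate block and leaving out each library.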

Additional observations from a re-analysis of the deposited data

How the results depend on the processing

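The number of other iron genes called stayed within 1.5 times of the reported value in 14 of 15 comparisons when values were divided by column totals and when median-ratio size factors were used; spcing1 against ing1 went from 1 to 2 with each. It stayed within that range in all 15 with a pseudocount of 16, no filter, only the groups compared and the replicate block. With 1 library left out, the count ranged from 17 to 26 for ada2a against Col-0 (28 reported), from 12 to 16 for ada2aspc against spc (20) and from 0 to 3 for spcing1 against ing1 (1). The cause was not tested, but each such fit has 1 sample fewer. The replicate numbers did not pair the samples: over 135 pairs of same-numbered libraries, r of deviations ran from -0.11 to 0.09. With the replicate block, 45 genes were called in gcn5 and 39 in ada2b, against 45 and 40 without it. With column totals the all-gene median came to 0.27 in ada2b and -0.33 in ada2a against ada2b, and 2 called genes reversed, TIC21 in ada2b (0.0149) and ABCI8 in ada2a against ada2b (-0.0798). FER1 in sdrl also changed sign (0.02 to -0.05), but the 7 genes shifted more in gcn5 and ada2b against Col-0. In ada2b, FER1 went from 0.63 to 0.89, FER3 from 0.55 to 0.82, FER4 from 0.38 to 0.65 and NAS1 from -1.18 to -0.92. In gcn5, FER1 went from 0.44 to 0.64, FER3 from 0.68 to 0.88, FER4 from 0.26 to 0.46 and NAS1 from -1.43 to -1.23. In ada2a the shift was downward, with FER3 going from 0.52 to 0.44 and FER4 from 0.46 to 0.38. Precision was limited by 3 libraries per genotype, most for NAS2, NAS3 and FER1.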

Other observations

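Other genes of the transport and storage lists had directions shared by many mutants. YSL8, of the family that carries metal-nicotianamine complexes, stood at 828 ± 38.8 in Col-0. It fell in the 7 mutants other than gcn5 and ada2b, to 456 ± 61.1 in sdrl (limma, -0.87 ± 0.12, adjusted p = 6.6e-07). In gcn5 YSL8 was called higher (limma, 0.29 ± 0.12, adjusted p = 0.0496). YSL5 of the same family rose in 6 mutants, from 1791 ± 28.4 to 2620 ± 167 in spcing1 (limma, 0.55 ± 0.09, adjusted p = 1.61e-05). NRAMP4, which releases iron from vacuoles, fell in 8 mutants, from 2522 ± 66.3 in Col-0 to 1548 ± 221 in ing1 (limma, -0.71 ± 0.10, adjusted p = 2.69e-06), and was at 2406 ± 146 in ada2b. These comparisons share the Col-0 libraries.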
